A study of Mus musculus with 8 samples.

Results

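The genes described here are the Eph receptors and their ephrin ligands, the Slits and their Robo receptors, and the netrins, netrin-Gs and Unc5 receptors, in hepatic stellate cells of mice with and without an induced deletion of Lhx2. They were taken by name, as every gene of these families that the platform annotation pairs with a probe set as its single symbol. This gave 37 genes on 41 probe sets, out of 19938 genes in all. Epha10, Ephb1, Ntng1 and Unc5d, the 4 genes that have 2 probe sets, are given by the one with the higher mean, and their other probe sets did not pass either. Ephb2 and Ntng2 were not analysed here.

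Stellate cells are the vitamin A-storing pericytes of the liver sinusoid, and they were sorted for their retinoid fluorescence and measured on Affymetrix Mouse 1.0ST arrays. The 4 control arrays (1 to 4) came from Lhx2 floxed mice without Cre, and the 4 knockout arrays (5 to 8) from Lhx2 floxed mice that also carried Mx1Cre, both on a C57BL/6J background. Both groups received poly(I:C) 3 times, and cells were taken 2 weeks afterwards. Mx1Cre is driven by an interferon-responsive promoter that is active in many liver and blood cells, so deletion in stellate cells and deletion in other cells cannot be told apart. Cre was present in the knockout group only, and its own effects cannot be told apart from those of the deletion. The ages of the mice are not given in the labels. Nor do the labels state that each array is a separate animal, so p-values measure the spread between arrays, which may be technical. In bulk samples such as these, fewer cells of a type and less RNA per cell cannot be told apart.

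These families are best known as guidance cues, which steer growing axons, migrating cells and sprouting vessels. Ephs are receptor tyrosine kinases that bind ephrins on a neighbouring cell, and both cells can receive a signal from the contact. Ephrin-As are held in the membrane by a lipid anchor, whereas ephrin-Bs span it. Slits are secreted proteins that bind Robo receptors, and netrins are secreted relatives of the laminins that bind Unc5 proteins, Dcc and neogenin.

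The largest differences among the 37 genes were those of the receptors Epha3 and Epha4, which rose together, and their promoters are therefore shown. The sequences are the 250 bases upstream of the RefSeq transcript start in GRCm38.p6, both on the minus strand, at chr16:63864176-63864425 for Epha3 and chr1:77515089-77515338 for Epha4. Capitals mark GC boxes (GGGCGG on either strand).
Epha3: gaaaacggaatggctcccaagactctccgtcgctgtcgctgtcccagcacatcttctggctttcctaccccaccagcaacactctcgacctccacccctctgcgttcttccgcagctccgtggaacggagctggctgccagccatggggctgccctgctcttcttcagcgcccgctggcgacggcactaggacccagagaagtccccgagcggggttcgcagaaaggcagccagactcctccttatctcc
Epha4: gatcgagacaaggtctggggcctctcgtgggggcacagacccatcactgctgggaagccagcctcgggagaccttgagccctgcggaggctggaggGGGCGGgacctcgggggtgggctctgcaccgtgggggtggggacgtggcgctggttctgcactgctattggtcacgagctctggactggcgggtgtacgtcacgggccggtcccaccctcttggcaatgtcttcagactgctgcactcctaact
The windows are GC-rich, with a GC content of 62.8% for Epha3 and 66.0% for Epha4 and with 16 and 14 CpG dinucleotides. The Epha4 window holds 1 GC box and the Epha3 window 0, and 32.7% of all 32851 RefSeq promoter windows of this length hold at least 1. Neither window holds the homeodomain core TAAT or the palindrome TAATTA of LIM homeodomain factors, searched on both strands (the first lies within the second), which occur in 54.9% and 4.84% of all windows. Promoter windows were found for 33 of the 37 genes, 8 of them genes that rose or fell. The core occurred in at least 1 window of 13 of the 33 (39.4%) and of 3 of the 8, which were Epha1, Ephb3 and Robo2. The 39.4% is a share of genes, with 38 windows for the 33, while the 54.9% is a share of windows. The palindrome occurred in the windows of Efna1, Epha5 and Robo3, and in 0 of the 8. Such matches describe letters only, and say nothing of whether a factor binds.

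With the knockout set against the control, 4 of the 37 genes rose and 5 fell (limma, adjusted p below 0.05 by Benjamini-Hochberg over all 19938 genes), and 28 did not pass. Over all genes tested 7.38% passed, 3.76% as higher and 3.63% as lower. The genes that rose were Epha4, Epha3, Ephb3 and Slit3, and those that fell were Unc5b, Robo2, Ntn1, Epha1 and Efna5. In each of these 9 genes the knockout arrays all lay on one side of the control arrays. Such a separation was seen in these 9 members alone, a share of 24.3%, while 12.7% of all genes tested had one. The median difference of the 37 genes was -0.0022 on the log2 scale, against -0.02 over all genes. All levels are log2 expression values, in which a step of 1 is a doubling, and levels of different genes are not compared because probe sets differ in brightness.

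**Figure D1:**
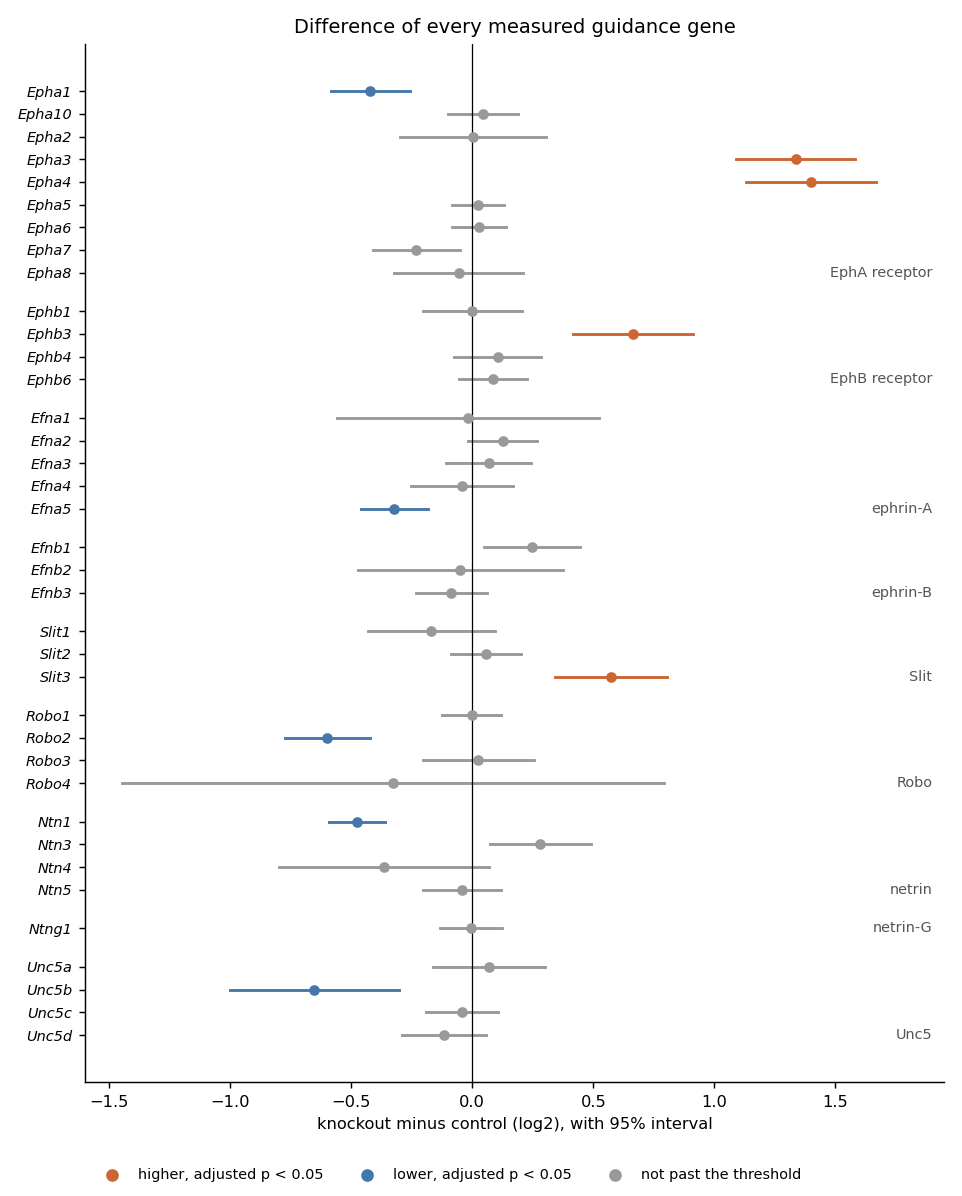
Knockout minus control difference on the log2 scale (x axis) for each of the 37 genes (y axis, grouped by family), with the limma 95% interval over 4 control and 4 knockout arrays. Orange genes rose and blue genes fell at an adjusted p under 0.05; Epha3 and Epha4 stand furthest to the right at 1.34 and 1.40, and Robo4 has the widest interval, from -1.45 to 0.79.

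As a guide to unexpressed levels, 95% of the 1194 olfactory and vomeronasal receptor genes lay below a mean level of 6.77. Of the 37 guidance genes, 29 had a mean at or above it. The other 8 were Epha5, Epha6, Ephb1, Efna3, Ntn5, Robo3, Slit2 and Unc5c, with differences between -0.04 and 0.07. A real difference in these genes may not have been measurable. Of the 29 guidance genes at or above that level, 31.0% passed and 31.0% had groups that did not overlap. Over all 13688 genes at or above it, the shares were 10.4% and 17.2%. These shares were not tested.

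Among the EphA receptors, 2 rose, 1 fell and 6 did not pass. Epha3 had log2 levels of 9.69, 10.02, 10.19 and 10.05 in the controls and of 11.41, 11.45, 11.28 and 11.16 in the knockouts. Even the lowest knockout array, array 8, was 0.96 above the highest control array. The rise of 1.34 (SE 0.11) is 2.53-fold, with an adjusted p of 6.97e-05. Epha4, a receptor that binds ephrins of both classes, had 8.99, 9.49, 9.37 and 9.10 in the controls and 10.42, 10.65, 10.70 and 10.78 in the knockouts. Its groups were again far apart, and its rise of 1.40 (SE 0.12) is 2.64-fold (adjusted p = 9.13e-05). The group means were 9.99 ± 0.21 and 11.33 ± 0.13 for Epha3 and 9.24 ± 0.23 and 10.64 ± 0.15 for Epha4 (SD, n = 4 each).

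Epha1, a receptor known mostly from epithelia, went the other way. Its control levels were 7.27, 7.30, 7.29 and 7.33, within 0.06 of each other, and its knockout levels 6.87, 7.01, 6.68 and 6.96. The fall of 0.42 (SE 0.07, adjusted p = 0.00644) ended near the receptor-gene percentile of 6.77, so its size is uncertain. Epha7, the EphA receptor with a control level of 12.27 ± 0.12 (SD, n = 4), had a difference of -0.23 (SE 0.08, unadjusted p = 0.0173 in limma), and it did not pass (adjusted p = 0.145). Its groups overlapped, since knockout array 6 at 12.19 lay above control array 3 at 12.12.

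Epha2, which binds ephrin-A1 on epithelium and vessels, had 10.85 ± 0.28 in the controls and 10.86 ± 0.15 in the knockouts (SD, n = 4 each). The interval of its difference ran from -0.30 to 0.31. The differences of Epha8 and Epha10 were -0.06 and 0.04. Epha6 lies 4 protein-coding genes from Epha3 on chromosome 16 of the RefSeq annotation, and its levels were 5.58 in the controls and 5.61 in the knockouts, under the receptor-gene percentile.

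Of the 4 EphB receptors measured, Ephb3 rose and the other 3 did not pass. Ephb3 had 9.02, 9.17, 9.09 and 9.25 in the controls and 9.45, 9.90, 9.93 and 9.91 in the knockouts. Knockout array 5 lay 0.46 below the nearest other knockout array and still above every control. The rise of 0.66 (SE 0.11) is 1.59-fold (adjusted p = 0.00528). Ephb4, the receptor of ephrin-B2 and a marker of veins, had 11.20 ± 0.17 in the controls and 11.30 ± 0.04 in the knockouts (SD, n = 4 each), with an interval of the difference from -0.08 to 0.28. Ephb6, which lacks kinase activity, had a difference of 0.09, and Ephb1 lay under the percentile in both groups.

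Among the 5 ephrin-A ligands, 1 fell. Efna5, an ephrin-A that binds Epha3, Epha4 and other Ephs, had 11.35, 11.34, 11.36 and 11.16 in the controls and 10.93, 10.93, 11.04 and 11.01 in the knockouts. Its fall of 0.32 (SE 0.06, adjusted p = 0.0114) was the smallest change among the 9. The lowest control, array 4, was the one nearest to the knockouts. The other 4 ephrin-As did not pass, with differences of 0.13 for Efna2, -0.04 for Efna4, 0.07 for the dim Efna3 and -0.02 for Efna1. Efna1 had a knockout range of 7.29 to 8.68, which spanned all 4 control values (7.83 to 8.04).

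Of the 3 ephrin-Bs, limma called 0, and for 1 the unadjusted p was below 0.05. This was Efnb1, with 10.48 ± 0.17 in the controls and 10.73 ± 0.09 in the knockouts (SD, n = 4 each), a difference of 0.25 (unadjusted p = 0.0199, adjusted p = 0.16). Without control arrays 1 and 4, its adjusted p was 0.0385 at a difference of 0.39. Efnb2, the artery-associated ligand of Ephb4, and Efnb3 had differences of -0.05 and -0.09.

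**Figure D2:**
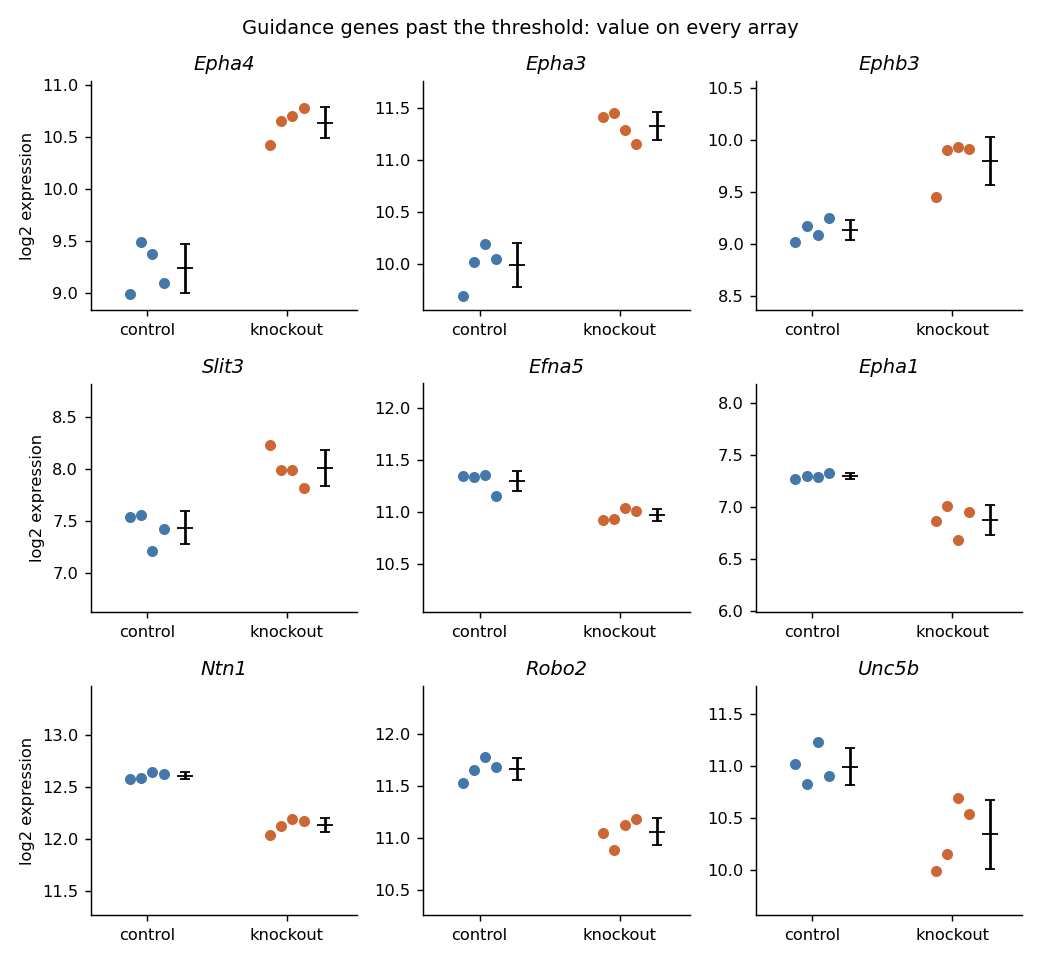
Log2 expression (y axis, with the same span in every panel) of the 9 guidance genes past the threshold, ordered from the largest rise to the largest fall. Each point is 1 array (control blue, knockout orange) and the black bars are group mean and SD (n = 4 each); in no panel do the groups overlap, and Ephb3 and Unc5b have the widest knockout spread.

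In the Slit and Robo families 1 ligand rose and 1 receptor fell. Slit3, a secreted ligand of the Robo receptors, had 7.54, 7.56, 7.21 and 7.43 in the controls and 8.23, 7.99, 7.99 and 7.82 in the knockouts. The rise of 0.57 (SE 0.10) is 1.49-fold (adjusted p = 0.00816). Slit1 had a difference of -0.17 with overlapping groups, and Slit2 lay at 6.21 and 6.26, under the receptor-gene percentile.

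Robo2 had 11.52, 11.65, 11.77 and 11.68 in the controls and 11.05, 10.89, 11.12 and 11.18 in the knockouts. It fell by 0.60 (SE 0.08, adjusted p = 0.00136), to 66.0% of the control level. Robo1, its neighbour with 0 protein-coding genes between them on chromosome 16, had 11.32, 11.33, 11.32 and 11.33 in the controls and 11.24, 11.30, 11.43 and 11.32 in the knockouts. The knockout values of Robo1 fell on both sides of the controls, and the interval of its difference ran from -0.12 to 0.12. The interval for Robo2 ran from -0.78 to -0.42; the difference between these 2 changes was not itself tested. Robo3 lay under the percentile.

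Robo4, the Robo of endothelial cells, had the widest spread of the 37 genes. Its control levels were 7.58, 9.41, 8.12 and 9.93, and its knockout levels were 7.68, 8.46, 8.55 and 9.05. The mean of 14 endothelial marker genes, such as Pecam1, Kdr and Stab2, was 8.24, 10.20, 9.12 and 10.68 on the same control arrays and 8.33, 9.18, 9.02 and 9.53 on the same knockout arrays. Both were lowest on control array 1 and highest on control array 4. The difference of Robo4 between the groups was -0.33 with an interval from -1.45 to 0.79, so no difference was detectable.

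Ntn4, a netrin of basement membranes that is prominent around vessels, had 8.19, 8.79, 8.63 and 9.08 in the controls and 7.91, 8.44, 8.31 and 8.56 in the knockouts. It too was highest on control array 4, but it was lowest on knockout array 5, not on control array 1. Its difference of -0.37 (SE 0.19) did not pass (adjusted p = 0.407). Of the 14 endothelial markers, 14 had mean levels above the receptor-gene percentile, and 1, Clec4g, fell. All 14 differences were negative, from -1.23 (Clec4g) to -0.02 (Emcn), with a median of -0.45, while the endothelial means overlapped between the groups. Efnb2 was also highest on control array 4, at 8.35, but lowest on control array 3, at 7.46. Over all 8 arrays, Robo4 had the order of the endothelial mean except for knockout array 7, and Efnb2 except for control array 3. Ntn4 had that order except for knockout array 5 and control array 3. Robo4, Ntn4 and Efnb2 did not pass under any of the 21 alternatives, including the fit with the endothelial markers as a covariate. In that limma fit Efnb2 had a difference of 0.13 (adjusted p = 0.5945). How much of the level of Robo4, Ntn4 and Efnb2 is endothelial RNA was not tested.

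**Figure D3:**
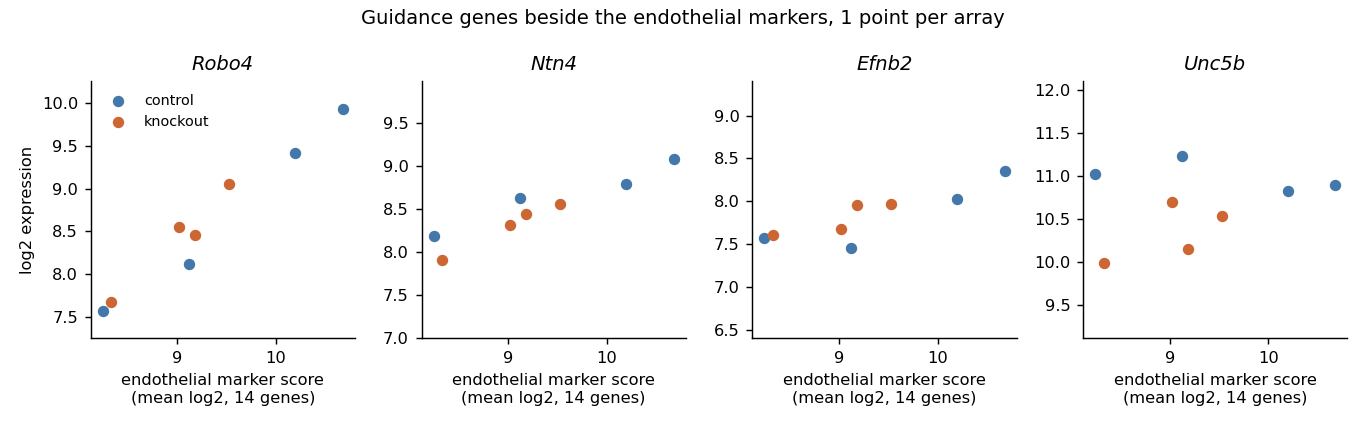
Log2 expression (y axis) of Robo4, Ntn4, Efnb2 and Unc5b against the mean log2 level of 14 endothelial markers (x axis), 1 point per array, controls blue and knockouts orange. Robo4 runs from 7.58 on the control array with the lowest endothelial level to 9.93 on that with the highest. For Unc5b the knockouts lie below all controls. The endothelial level runs from 8.33 to 9.53 in the knockouts and from 8.24 to 10.68 in the controls.

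Among the netrins, Ntn1 fell. Netrin-1, the founding member of the family, had 12.58, 12.58, 12.64 and 12.62 in the controls and 12.04, 12.13, 12.19 and 12.17 in the knockouts. The group means were 12.61 ± 0.03 and 12.13 ± 0.07 (SD, n = 4 each), a fall of 0.48 (SE 0.05, adjusted p = 0.000434) that left 71.9% of the control level. Ntn3 had 7.37 ± 0.15 and 7.65 ± 0.14 (SD, n = 4 each), a difference of 0.28 (unadjusted p = 0.0136 in limma) that did not pass (adjusted p = 0.124). Ntng1, a membrane-anchored netrin-G, had a difference of -0.0049.

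Of the 4 Unc5 receptors, which relay repulsion and, without ligand, can trigger cell death, Unc5b fell. Its levels were 11.02, 10.83, 11.23 and 10.90 in the controls and 9.99, 10.15, 10.70 and 10.54 in the knockouts. Knockout arrays 5 and 6 were lower than knockout arrays 7 and 8, and array 7 lay 0.13 below the lowest control. The fall of 0.65 (SE 0.16, adjusted p = 0.0345) was the least stable of the 9. It did not pass when any array except knockout 7 or 8 was left out (adjusted p up to 0.107), nor with the endothelial markers as a covariate (adjusted p = 0.06 at a difference of -0.66). Unc5a, with 11.30 ± 0.18 in the controls and 11.37 ± 0.15 in the knockouts (SD, n = 4 each), did not pass, nor did Unc5d, and Unc5c lay under the percentile.

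The other 8 genes that rose or fell passed without each array in turn, and with the endothelial or the hepatocyte marker level as a covariate. Without control arrays 1 and 4, which had the lowest and highest endothelial levels, Ephb3 had an adjusted p of 0.0501, Slit3 of 0.0536 and Epha1 of 0.0709, at differences of 0.67, 0.62 and -0.42. Epha3, Epha4, Robo2, Ntn1 and Efna5 passed there too.

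Markers of other cells moved with the groups in part. Of 11 portal fibroblast markers, 5 rose, with 0 of the 11 under the receptor-gene percentile. The mean level of the 11 was 7.75 to 7.94 in the controls and 8.61 to 8.81 in the knockouts. The markers were uneven, and their median difference was 0.27. The rises ran from 0.39 (Mfap4) to 3.08 (Cd34), and the rest did not pass, with differences from -0.29 (Entpd2) to 0.27 (Fbln2). The part of portal fibroblast RNA in the rises of Epha3, Epha4, Ephb3 and Slit3 was not tested. Of 16 stellate cell markers 8 fell, and the mean level of the 16 was 12.85 to 12.96 in the controls and 12.50 to 12.56 in the knockouts. Differences of those that fell ran from -1.48 (Gfap) to -0.26 (Reln). The rest did not pass, with differences from -0.23 (Ngfr) to 0.10 (Lrat). Of 8 mesothelial markers 5 lay under the percentile, as did 7 of 8 lymphocyte markers, and the mean levels of these lists overlapped between the groups. Those of the hepatocyte (8.90 to 10.87 and 9.28 to 10.63), macrophage (7.35 to 8.23 and 7.32 to 7.80), cholangiocyte, smooth muscle and Schwann cell lists overlapped too. Some markers in these lists still passed. In the smooth muscle list Tagln rose by 0.77 and Smtn fell by 0.36, while Cd68 (macrophage) fell by 0.61 and Wt1 (mesothelial) by 0.24. Lhx2 itself was at 12.07, 11.88, 11.94 and 11.92 in the controls and at 11.09, 11.24, 11.35 and 11.49 in the knockouts (fall of 0.66, SE 0.09, adjusted p = 0.00136). Whether its probes lie in the floxed part is not given in the sources used here.

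Beyond the families themselves, 76 of 81 listed receptors, co-receptors, proteases and intracellular partners of these pathways were measured. Of these, 6 rose, 11 fell and 59 did not pass, and their median difference was -0.06. The share that passed was 22.4%, against 7.38% of all genes and 10.4% of genes at or above the receptor-gene percentile. By group of partners it ran from 15.6% (Eph and ephrin partners) to 36.4% (netrin and Unc5 effectors). The list was drawn up with earlier results of these data known, and these shares were not tested. Among netrin and Unc5 binders, 1 rose and 3 fell of 14. Lrrc4c, the membrane ligand of netrin-G1, had 11.52, 11.37, 11.60 and 11.26 in the controls and 9.37, 9.76, 10.57 and 10.83 in the knockouts. Its knockout arrays spread over 1.46 and still lay below every control, with a fall of 1.30 (SE 0.28, adjusted p = 0.023). This call was lost without control 1, 2 or 3 or knockout 6 (adjusted p up to 0.0739), and with a trended, robust variance prior (0.0781).

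Mcam, an adhesion molecule reported as a netrin-1 receptor, fell by 1.09 (SE 0.08). Dcc, the classical netrin-1 receptor, passed with a difference of -0.27, but at levels of 6.64 and 6.36 that lay under the receptor-gene percentile. Its call was lost without control 3 or 4 or knockout 5, 6 or 7 (adjusted p up to 0.0962), with quantile normalization (0.0648) and with the endothelial covariate (0.0676). Neogenin (Neo1), the relative of Dcc, had 11.13 in the controls and 11.28 in the knockouts and did not pass (adjusted p = 0.233). Rgma, a neogenin ligand, rose by 0.38. Its call was lost in 6 of the 8 fits that each left out 1 array, all but those without control 1 or knockout 6, with an adjusted p of 0.116 at most. It was also lost with quantile normalization (0.061), array weights (0.0545) and the endothelial covariate (0.0837), and without control arrays 1 and 4 (0.146).

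Of 19 Slit and Robo partners, 2 rose and 2 fell. The heparan sulfate proteoglycans, which help Slit bind Robo, went both ways: Sdc1 rose by 0.68 (SE 0.10), while Gpc1, glypican-1, fell by 0.48 (SE 0.06). Sdc2 rose by 0.27 (adjusted p = 0.0323), but that call was lost in 5 of the 8 fits without 1 array (control 1, 2 or 4, knockout 6 or 7; adjusted p up to 0.106), with median centring (0.0568) and with the endothelial covariate (0.0671). Sdc3 and Sdc4 had differences of -0.21 and -0.13 and did not pass (adjusted p = 0.174 and 0.244). Nck2, an adaptor that links Robo and Eph receptors to the actin cytoskeleton, fell from 10.88 ± 0.07 to 10.22 ± 0.07 (SD, n = 4 each; adjusted p = 9.94e-05), while its paralogue Nck1 had a difference of -0.07 (adjusted p = 0.69). Of the srGAPs, the Rac and Cdc42 regulators that bind Robo, limma called 0 of 3, and for 1, Srgap3, the unadjusted p was 0.0459.

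Of 32 Eph and ephrin partners, 2 rose and 3 fell. Spsb1, a ubiquitin ligase adaptor, fell by 0.66 (SE 0.09), Adam12, a metalloprotease that can cleave ephrins, by 0.52 (SE 0.08) and the ephrin-B adaptor Sdcbp, syntenin, by 0.27. Rgs3, which binds ephrin-B, rose by 0.46, but its probe sets disagreed and their mean gave 0.18 (adjusted p = 0.294). Without control 2 or knockout 6 its adjusted p was up to 0.0535. Dvl2, a Dishevelled protein that acts downstream of ephrin-B, rose by 0.22 (adjusted p = 0.0263). The Dvl2 call was lost on leaving out any array but control 1 (adjusted p up to 0.082), with quantile normalization (0.0871), with a trended, robust prior (0.0888) and with the endothelial covariate (0.0603).

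Of 11 netrin and Unc5 effectors, 1 rose and 3 fell. Ank3, ankyrin-G, an ankyrin of the membrane skeleton, fell by 1.09 (SE 0.08, adjusted p = 4.79e-05) from 12.37 ± 0.12 (SD, n = 4). Ablim1, an actin-binding protein of netrin signalling, fell by 0.33 (adjusted p up to 0.0633 without control 4 or knockout 7), and Pitpna, a phosphatidylinositol transfer protein that binds Dcc, fell by 0.24 (adjusted p = 0.0162, and 0.0552 without control 2). Dapk1, the death-associated kinase downstream of Unc5b, rose by 0.46, a call lost without control 2 or any of the 4 knockout arrays (adjusted p up to 0.091).

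**Figure D4:**
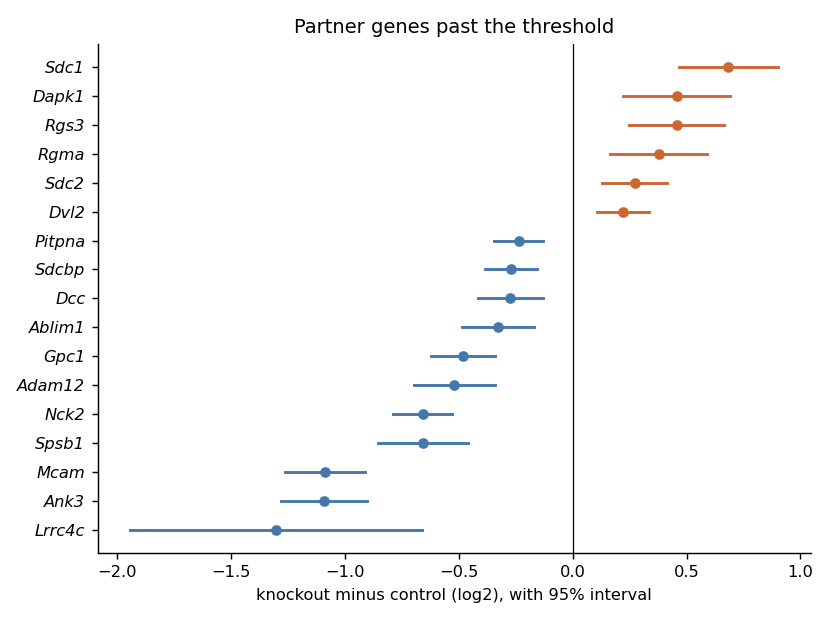
Knockout minus control difference on the log2 scale (x axis) with the limma 95% interval for the 17 partner genes past the threshold (y axis), over 4 control and 4 knockout arrays. The 6 that rose (orange) lie between 0.22 and 0.68 and the 11 that fell (blue) between -1.30 and -0.24, with the widest interval for Lrrc4c.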

How the data were processed

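Expression was measured on 1 array per sample, in 4 control and 4 knockout samples. The values are deposited log2 values per probe set, which the authors normalized with RMA (Robust Multichip Algorithm) from 150 ng of RNA per sample, per the labels' protocols; RMA compresses differences at dim and very bright probe sets. For the RMA version, annotation and batches: not given in the sources used here. Array medians were 7.42 to 7.47. Of 35556 probe sets, 21789 had a single symbol in the platform annotation, 1621 had several and were left out, and 12146 were unnamed here. The probe set with the highest mean stood for each of 19938 genes.

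Groups came from sample titles. Knockout was compared with control by lmFit and eBayes (limma 3.58.1, R 4.3.3; two-sided, no filter, no covariate), and p-values were adjusted by Benjamini-Hochberg over the 19938 genes, with 0.05 as the threshold; intervals are 95%. The fit was tested on simulated data, with no outcome of that test reported here. Every one of the 37 genes was named, and of the partners past the threshold the 12 largest, with Dcc, Sdc2, Sdcbp, Dvl2, Pitpna and some that did not pass named after their values were seen. The number of arrays limits the precision. Gene lists, members and alternatives were chosen with earlier results of these data known. Promoter sequences and gene order are those of RefSeq (GRCm38.p6).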

Additional observations from a re-analysis of the deposited data

Results flagged for a closer look

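In 5 of the 76 groups of 4 arrays examined (the 37 guidance genes and Lhx2 in each group), 1 array stood apart from the rest by more than Dixon's 95% criterion, which chance alone meets in about 1 group in 20. The groups share the same arrays, so they are not independent of each other. Efna5 was at 11.16 on control array 4, against at least 11.34 on the other controls, and that array was the control nearest to the knockouts. Ephb3 was at 9.45 on knockout array 5, against at least 9.90 on the other knockouts. The other cases were dim: Ephb1 at 5.96 and Robo3 at 6.14, both on control array 3, and Ntn5 at 6.86 on control array 1.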

How the results depend on the processing

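Across 21 alternatives, 0 of the 37 guidance genes reversed a call. The count of rises was 4 except with a 1.5-fold minimum, which Slit3 missed, or without control arrays 1 and 4 (3 each). In the latter case Ephb3 and Slit3 no longer passed and Efnb1 did. Without control arrays 1 and 4 the partners Lrrc4c, Rgs3, Rgma, Ablim1, Dcc, Sdc2, Sdcbp, Pitpna and Dvl2 also did not pass (adjusted p 0.0529 to 0.248). The falls went from 5 to 2 with the 1.5-fold minimum, to 3 at an adjusted p under 0.01 and to 3 without control arrays 1 and 4. Under the same 3 settings the genes changed went from 1472 to 523, 775 and 776, the partners that rose from 6 to 1, 1 and 2, and the partners that fell from 11 to 5, 6 and 7. The first 2 settings are stricter by construction and the last has fewer arrays. Leaving out 1 array at a time gave 1 to 5 risen partners. The count was 1 without control 2, 2 without knockout 6 or 7, and 3 without control 4, knockout 5 or knockout 8. Median centring and quantile normalization kept the counts of 4 and 5. Dim genes limit the data: 8 of the 37 lay under the receptor-gene percentile. No paired analysis was possible because the groups share no replicate numbers.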

Other observations

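The knockout arrays differed among themselves in the level of Lhx2, which was 11.09, 11.24, 11.35 and 11.49 on arrays 5 to 8. The levels of Lrrc4c on the same arrays, 9.37, 9.76, 10.57 and 10.83, and of Epha4, 10.42, 10.65, 10.70 and 10.78, had the same order. Those of Slit3, 8.23, 7.99, 7.99 and 7.82, had the opposite order, with arrays 6 and 7 nearly equal at 7.990 and 7.987. The levels of Epha3, 11.41, 11.45, 11.28 and 11.16, had neither order. The order of Lhx2 is also that of the array numbers, so a relation to either cannot be told apart. Lrrc4c, Epha4 and Slit3 were chosen for their order after their values were seen, so the relation was not tested.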
